A study of Homo sapiens with 27 samples.

Results

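Transforming growth factor beta (TGFB) was added to MCF10A cells that also received epidermal growth factor (EGF) and oncostatin M (OSM), and the RNA of those cells was compared with that of cells given EGF and OSM alone. The members were chosen by their labels: 3 libraries with all 3 ligands (EGF+OSM+TGFB) and 3 libraries with EGF and OSM (EGF+OSM), 6 of the 27 libraries in the study. MCF10A is a line of human breast epithelium that does not form tumours and has long been established in culture, so all groups come from 1 line. Cells were plated on collagen, starved of growth factors for 18 h, and then given fresh starvation medium with EGF, OSM and TGFB at 10 ng/ml each, or with EGF and OSM at 10 ng/ml each; RNA was taken 24 h later. Before that the cells had grown with 20 ng/ml EGF, horse serum, hydrocortisone, cholera toxin and insulin. The other libraries compared here made the same TGFB comparison, again with 3 libraries a side. It was made on a phosphate-buffered saline (PBS) control, on EGF alone and on OSM alone. Those 4 comparisons share no library, but their libraries carry the same replicate numbers. Nothing in the labels says that the 3 libraries of a group came from separate cultures. The p-values measure the spread of libraries within groups, which may be technical. This spread was pooled over the 9 groups of all 27 libraries, not only the 6 compared. The groups include libraries without ligand (T0), taken at 0 h after the 18 h starvation.

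TGFB binds a pair of serine/threonine kinase receptors that phosphorylate SMAD2 and SMAD3. These bind SMAD4, enter the nucleus and act on target genes together with factors that the cell already holds, such as AP-1. In mammary epithelium TGFB is known to stop the cell cycle, to raise matrix production and to start an epithelial-mesenchymal transition (EMT). EGF acts through the RAS-ERK pathway and drives division of these cells, while OSM, an interleukin-6 family cytokine, acts through the gp130 receptor, JAK kinases and STAT3.

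The promoters of 4 genes are shown as examples from gene groups described below: SMAD7 and IL11, which rose, and MCM6 and CDC20, which fell. Each line holds the 250 bases before the RefSeq transcription start in GRCh38.p14, read 5′ to 3′ on the gene's strand. In SMAD7, the feedback inhibitor of the TGFB receptor (chr18:48950966-48951215, minus strand), capitals mark CAGAC, the SMAD box. In IL11, a gp130 cytokine (chr19:55370464-55370713, minus strand), capitals mark the SMAD box, which lies on the other strand and so reads GTCTG, and the AP-1 site TGAGTCA. In MCM6, a subunit of the replicative helicase (chr2:135876444-135876693, minus strand), capitals mark the E2F site TTTGGCGC. In CDC20, an activator of the anaphase-promoting complex (chr1:43358731-43358980, plus strand), capitals mark the CHR element TTTGAA, which reads TTCAAA on the other strand, and the CCAAT box bound by NF-Y.
SMAD7: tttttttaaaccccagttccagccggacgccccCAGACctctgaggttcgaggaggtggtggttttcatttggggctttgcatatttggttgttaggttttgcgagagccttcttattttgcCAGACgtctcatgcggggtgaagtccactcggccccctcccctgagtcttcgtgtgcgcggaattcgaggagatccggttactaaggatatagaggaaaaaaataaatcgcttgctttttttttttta
IL11: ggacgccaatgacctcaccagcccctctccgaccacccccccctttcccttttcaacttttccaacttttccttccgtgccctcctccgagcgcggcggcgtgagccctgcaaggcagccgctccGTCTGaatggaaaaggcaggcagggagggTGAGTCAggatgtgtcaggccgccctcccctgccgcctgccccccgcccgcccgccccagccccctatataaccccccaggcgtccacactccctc
MCM6: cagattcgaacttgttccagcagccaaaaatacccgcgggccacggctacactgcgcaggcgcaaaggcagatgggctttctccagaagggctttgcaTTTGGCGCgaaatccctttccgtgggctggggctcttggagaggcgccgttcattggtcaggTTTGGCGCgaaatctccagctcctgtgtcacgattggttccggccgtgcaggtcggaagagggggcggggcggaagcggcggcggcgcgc
CDC20: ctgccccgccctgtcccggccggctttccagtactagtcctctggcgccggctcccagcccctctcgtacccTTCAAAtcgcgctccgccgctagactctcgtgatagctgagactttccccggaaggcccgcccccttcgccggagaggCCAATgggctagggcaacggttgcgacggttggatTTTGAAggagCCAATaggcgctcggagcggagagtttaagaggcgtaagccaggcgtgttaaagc

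Both strands of the same window were searched for these letters in 27305 RefSeq promoters. An E2F site (TTTGGCGC or TTTCCCGC) lay in 9 of the 28 replication and mitosis genes with a RefSeq promoter (32.1%), against 1.96% of all promoters. A CCAAT box lay in 21 of those 28 (75.0%, against 33.0%), and TTTGAA and CCAAT stood together in 7 (25%, against 4.85%). The short SMAD box is common: CAGAC was found in 7 of 12 TGFB target genes with a promoter and in 6 of 14 SMAD and feedback genes, against 37.8% of all promoters. CAGAC and TGAGTCA stood together in 1 of the 12 TGFB target genes, IL11, and in 0 of the 14 SMAD and feedback genes. The share over all promoters was 1.72%, so the pair shown for IL11 is not typical of its group. These are matches of letters and were not tested as binding sites.

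The 6 libraries held 32787370 to 47148779 estimated counts. Levels are given as CPM, counts scaled to a common library size, which orders libraries for 1 gene but not genes against each other, because CPM is not per length. The 10 rows with the most counts took 6.29% to 6.74% of an EGF+OSM library and 10.3% to 10.9% of an EGF+OSM+TGFB library, and mitochondrial genes took 1.31% to 1.59% and 1.23% to 1.44%. The basal keratin KRT5 stood at 5350.3 ± 88.2 CPM with EGF+OSM and 6399 ± 58.1 CPM with TGFB added (SD, n = 3) and the epithelial cadherins CDH1 and CDH3 were present in all 6 libraries. Of 11 markers of fibroblasts, endothelium, immune cells and fat cells, 5 (PDGFRA, CDH5, PTPRC, CD3E and ADIPOQ) had at most 6 counts in any of the 6 libraries, and the summed level of the 6 that were tested was 31.1 to 39.3 CPM with EGF+OSM and 15.6 to 21.4 CPM with TGFB added. Most of that sum was CD14 and DCN: CD14 fell and DCN rose (0.48 ± 0.13; without EGF+OSM+TGFB replicate 2 it missed the threshold, adjusted p = 0.063), and their part in the other results was not tested.

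Adding TGFB changed the level of 9766 of 16611 rows tested at an adjusted p under 0.05 (58.8%). Of these, 5050 rose (30.4%) and 4716 fell (28.4%), and 1437 rose (8.65%) and 997 fell (6%) by more than 2-fold. Which direction held more of the called rows depended on the scaling and on single libraries. The 3 values of one group did not overlap the 3 of the other for 63.8% of the rows (33.1% higher and 30.8% lower with TGFB). Since more than 1 row in 2 passed the threshold, the counts of each gene group below are read against these shares. The gene lists were compiled from general knowledge with earlier results of these data known, so their counts are not independent support. The median log2 fold change over all rows was 0.02. All fold changes below are log2 values of EGF+OSM+TGFB over EGF+OSM, with their standard error (SE), unless another background is named.

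**Figure D1:**
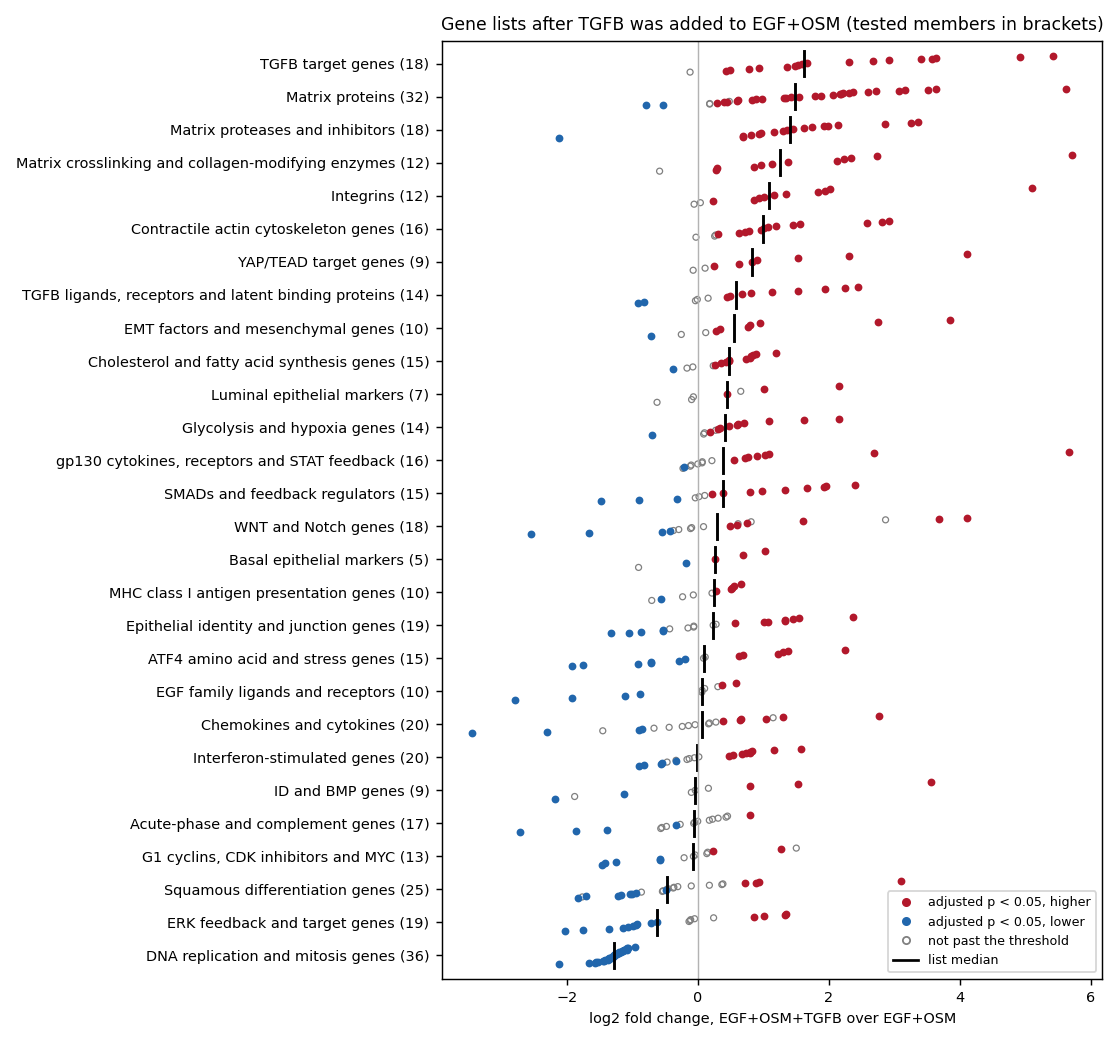
Log2 fold change (x axis) of each tested member of 28 gene lists (y axis) after TGFB was added to EGF+OSM, 3 libraries a side. Filled points passed an adjusted p of 0.05 (red higher, blue lower), open points did not, and the bar is the list median; TGFB target genes had a median of 1.62 and DNA replication and mitosis genes one of -1.28.

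Among genes called, with a mean of at least 10 CPM in the higher group and no overlap between the groups, the 12 steepest rises included FN1, TGM2, ITGB3 and KANK4. FN1, which encodes fibronectin, stood at 87.2, 88.5 and 52.9 CPM with EGF+OSM and 3963, 4223 and 3039 CPM with TGFB added. The log2 fold change was 5.62 ± 0.21 (adjusted p = 1.2e-14), a 49.1-fold rise in the means. In a fit of the 6 libraries alone the adjusted p was 2.7e-05. TGM2, a transglutaminase that crosslinks fibronectin and other matrix proteins, stood at 43.8, 46.5 and 24.9 CPM with EGF+OSM and 2099.5, 2147 and 1815 CPM with TGFB added (5.72 ± 0.21, adjusted p = 7.2e-15). ITGB3, the β chain of the αvβ3 receptor for fibronectin and vitronectin, stood at 3.03, 3.1 and 1.06 CPM with EGF+OSM and 86.9, 91.6 and 68.4 CPM with TGFB added (5.10 ± 0.28, adjusted p = 4.1e-12). That the groups lie apart in these genes was a condition of their choice. KANK4, of the KANK family of adhesion and cytoskeleton scaffolds, stood at 2.47, 2.21 and 1.11 CPM with EGF+OSM and 112, 108 and 89.4 CPM with TGFB added (5.74 ± 0.21, adjusted p = 6.1e-15). NEDD9, a scaffold protein of integrin signalling, rose by 4.60 ± 0.20, LMCD1, a LIM-domain cofactor, by 4.91 ± 0.14, and LBH, a transcription cofactor, by 4.58 ± 0.19.

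IL6 and ODAPH, also among the 12, were near 0 without TGFB. IL6, the founding gp130 cytokine, stood at 0.271, 0.303 and 0.253 CPM with EGF+OSM and 15.1, 12.3 and 15 CPM with TGFB added (5.66 ± 0.27, adjusted p = 1.5e-13). ODAPH, a gene known from enamel formation, stood at 0.163, 0.0698 and 0.0506 CPM with EGF+OSM and 19.7, 19.7 and 17.7 CPM with TGFB added (7.64 ± 0.25, adjusted p = 6.9e-17). ACKR3, a scavenging receptor for the chemokine CXCL12, rose by 4.63 ± 0.23. The counts of VASN, which encodes the TGFB-binding protein vasorin, are split over 2 rows, and only 1 of these rows placed it among the 12; summed, they were 75, 52 and 32 with EGF+OSM and 809, 657 and 557 with TGFB added (3.90 ± 0.23, adjusted p = 1.6e-12). TMEM265 was listed at 0 in all 3 EGF+OSM libraries and at 736, 588 and 634 counts with TGFB added; its locus overlaps another gene, so no fold is given.

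By the same conditions, the 12 steepest falls were led by FGFBP1, SLCO4A1 and EREG. FGFBP1, a carrier that releases stored fibroblast growth factors, stood at 33.1, 45.9 and 45.5 CPM with EGF+OSM and 3.45, 4.5 and 4.26 CPM with TGFB added (-3.36 ± 0.39, adjusted p = 2.6e-07). EREG, the EGF family ligand epiregulin, stood at 16.5, 15.4 and 21.1 CPM with EGF+OSM and 2.89, 2.23 and 2.51 CPM with TGFB added (-2.79 ± 0.23, adjusted p = 2.9e-10). The groups did not overlap in either gene, as the rule for choosing them required, and the EGF+OSM libraries spread widely. 3 membrane carriers were among the 12: the organic anion carrier SLCO4A1 (-3.03 ± 0.18), the amino acid transporter SLC6A14 (-2.65 ± 0.35) and the nucleobase transporter SLC43A3 (-2.57 ± 0.20). SLC43A3 stood at 249.6, 249 and 301 CPM with EGF+OSM and 41.8, 36.2 and 56.9 CPM with TGFB added. GLDC of the glycine cleavage system fell by 2.56 on the log2 scale, and JPH1, a junctional membrane protein, by 2.49. The clock repressor NR1D1 fell by 2.45, the depalmitoylase ABHD17C by 2.32, the nucleoporin NUP210 by 2.26, the endotoxin co-receptor CD14 by 2.25 and PLD6, a mitochondrial phospholipase, by 2.21.

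Among 14 TGFB ligands, receptors and latent binding proteins, 9 rose and 2 fell, with a median of 0.58. TGFBR1, the type I receptor kinase, stood at 59, 62.1 and 56.6 CPM with EGF+OSM and 293, 283 and 264 CPM with TGFB added and rose by 2.24 ± 0.07 (adjusted p = 1.2e-17). The type II receptor TGFBR2 stood at 267 ± 9.38 CPM with EGF+OSM and 259.7 ± 16 CPM with TGFB added (SD, n = 3) and did not pass the test (-0.04 ± 0.07, adjusted p = 0.65), while the co-receptor TGFBR3 fell (-0.92 ± 0.09). Of the ligands, TGFB2 rose from 1.15 to 6.32 CPM (2.44 ± 0.27), INHBA, which encodes an activin subunit, rose by 1.94 ± 0.21, TGFB3 fell (-0.82 ± 0.28) and TGFB1 did not pass the test (0.16 ± 0.09). Without EGF+OSM replicate 3 or EGF+OSM+TGFB replicate 2 TGFB3 missed the threshold (adjusted p = 0.084 and 0.065), and without EGF+OSM replicate 1 TGFB1 passed it (adjusted p = 0.013). LTBP1, LTBP2, LTBP3 and LTBP4, which hold latent TGFB in the matrix, all rose, LTBP2 the most (1.53 ± 0.08).

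Of 15 SMADs and feedback regulators, 9 rose and 3 fell (median 0.38). Several inhibitors rose: PMEPA1, which sequesters SMAD2 and SMAD3, stood at 179, 146 and 121 CPM with EGF+OSM and 802, 818 and 739 CPM with TGFB added (2.40 ± 0.10, adjusted p = 1.4e-14). SKIL, a SMAD corepressor, stood at 26.6, 25.6 and 24.3 CPM with EGF+OSM and 104, 97.9 and 88.7 CPM with TGFB added (1.93 ± 0.08), and SMAD7, whose promoter is shown above, stood at 16.1, 14.6 and 14.9 CPM with EGF+OSM and 49.5, 50.2 and 44.6 CPM with TGFB added (1.66 ± 0.08, adjusted p = 1.5e-14). In each of these genes all libraries with TGFB were above all libraries without it, which held for 33.1% of all rows. The ubiquitin ligases SMURF1 (1.33 ± 0.08) and SMURF2 (0.80 ± 0.05), the decoy receptor BAMBI (0.97 ± 0.13) and, at a very low level, SMAD6 (1.95 ± 0.33) rose too. The signalling SMADs themselves moved little: SMAD3 fell (-0.31 ± 0.07), and SMAD2 (0.10 ± 0.05) and SMAD4 (-0.04 ± 0.06) did not pass the test. NEDD4L, a ubiquitin ligase for activated SMADs, fell from 164 to 58.8 CPM (-1.48 ± 0.07, adjusted p = 5.8e-14).

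Of 18 known TGFB target genes, 17 rose and none fell (median 1.62); HMGA2, an architectural chromatin factor, did not pass the test (-0.12 ± 0.15). TGFBI, a secreted adhesion protein, stood at 3489, 3149.6 and 2624 CPM with EGF+OSM and 20086, 19901 and 18853 CPM with TGFB added (2.67 ± 0.10, adjusted p = 3.8e-16). It was already high without TGFB. IL11 stood at 0.542, 0.489 and 0.304 CPM with EGF+OSM and 5.95, 6.07 and 4.64 CPM with TGFB added (3.63 ± 0.23) and PDGFB, a platelet-derived growth factor chain, at 0.135, 0.163 and 0.0506 CPM with EGF+OSM and 5.63, 6.27 and 3.51 CPM with TGFB added (5.42 ± 0.40). These 2 genes were low in all 6 libraries. Their groups did not overlap, which held for 33.1% of all rows in this direction. The follistatin-like inhibitor FSTL3 (1.67 ± 0.08), the matricellular proteins CCN2 (2.30 ± 0.11) and CCN1 (1.53 ± 0.11) and the sphingosine kinase SPHK1 (1.58 ± 0.09) rose. Of 9 tested ID and BMP genes, 3 rose and 2 fell (median -0.04): BMP2 rose (1.52 ± 0.12), ID3 rose (0.79 ± 0.11), and FST, which encodes the activin antagonist follistatin, fell from 8.55 to 1.9 CPM (-2.18 ± 0.23, adjusted p = 1.5e-08). ID1, which TGFB represses in many epithelial cells, stood at 146 ± 8.72 CPM with EGF+OSM and 142 ± 10.5 CPM with TGFB added (SD, n = 3) and did not pass the test (-0.04 ± 0.14, adjusted p = 0.82).

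Matrix genes rose as a broad group. Of 32 tested matrix proteins, 27 rose and 2 fell (median 1.48), and 19 rose by more than 2-fold. TNC, the adhesion-modulating protein tenascin C, stood at 410.4, 413 and 317 CPM with EGF+OSM and 3459.7, 3376 and 3380.5 CPM with TGFB added (3.16 ± 0.17, adjusted p = 1.1e-12). The basement-membrane laminin chains LAMA3 and LAMB3 rose by 2.16 ± 0.09 and 1.89 ± 0.10. LAMB3 stood at 1921, 1548 and 1316 CPM with EGF+OSM and 6094, 5977 and 5619 CPM with TGFB added. Of the fibrillar collagens, COL1A1 stood at 5.2, 5.52 and 3.82 CPM with EGF+OSM and 38.3, 44.3 and 39.5 CPM with TGFB added (3.07 ± 0.12, adjusted p = 1.2e-15), and the basement-membrane collagen COL4A1 rose by 2.36 ± 0.13. COL7A1, of the anchoring fibrils, rose by 2.72 ± 0.13 and POSTN, which encodes periostin, by 3.64 ± 0.23. The exceptions were the fibrillin FBN2 (-0.80 ± 0.16) and the short-chain collagen COL8A1 (-0.53 ± 0.10), which fell, and THBS1, an activator of latent TGFB, which stood at 868 ± 102 CPM with EGF+OSM and 1211 ± 151 CPM with TGFB added (SD, n = 3) and did not pass the test (0.48 ± 0.22, adjusted p = 0.064; 0.0087 in a fit of the 6 libraries alone).

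Enzymes that modify collagen moved in the same direction, with 11 of 12 higher and none lower (median 1.25). The lysyl hydroxylase PLOD2 stood at 384, 346 and 277 CPM with EGF+OSM and 1969, 1619 and 1504 CPM with TGFB added (2.34 ± 0.11), the prolyl hydroxylase subunit P4HA2 rose by 2.22 ± 0.08 and the lysyl oxidase LOX by 2.12 ± 0.19. Of 18 matrix proteases and their inhibitors, 17 rose and 1 fell (median 1.41). The plasminogen activator PLAU stood at 173, 151 and 117 CPM with EGF+OSM and 1018, 1145 and 1028 CPM with TGFB added (2.86 ± 0.14, adjusted p = 1.5e-13), and the gelatinases MMP2 (3.36 ± 0.14) and MMP9 (3.26 ± 0.30) rose alongside the inhibitors TIMP1 (0.69 ± 0.08), TIMP2 (1.62 ± 0.10) and TIMP3 (0.82 ± 0.11). Activators and inhibitors of proteolysis were both higher. The exception was the aggrecanase-family protease ADAMTS1, which fell from 9.48 to 2.18 CPM (-2.12 ± 0.23).

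Of 12 integrin chains, 10 rose and none fell (median 1.09). Beside ITGB3, the fibronectin receptor chain ITGA5 stood at 414, 354 and 307 CPM with EGF+OSM and 1479.8, 1471 and 1169 CPM with TGFB added (1.94 ± 0.11), its αv relative ITGAV rose by 2.01 ± 0.08 and ITGB6, a chain of the integrin that frees latent TGFB, by 1.83 ± 0.14. ITGA6, a laminin receptor chain, stood at 1633 ± 82 CPM with EGF+OSM and 1677 ± 89.9 CPM with TGFB added (SD, n = 3) and did not pass the test (0.04 ± 0.09). Of 16 tested genes of the contractile actin cytoskeleton, 13 rose and none fell (median 0.99). TAGLN, an actin-bundling protein of smooth muscle, stood at 88.8, 94.1 and 59.7 CPM with EGF+OSM and 647, 615 and 561 CPM with TGFB added (2.91 ± 0.20, adjusted p = 8.8e-11); the myosin light chain MYL9 rose by 2.80 ± 0.19 and tropomyosin TPM1 by 2.58 ± 0.10. ACTA2, the smooth-muscle actin that marks myofibroblasts, stood at 6.48 ± 0.0522 CPM with EGF+OSM and 7.8 ± 1.3 CPM with TGFB added (SD, n = 3) and did not pass the test (0.27 ± 0.18, adjusted p = 0.2). Of 9 targets of YAP and TEAD, the effectors of the Hippo pathway, 7 rose and none fell (median 0.83).

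Genes of EMT rose while several epithelial genes rose as well. Of 10 tested EMT factors and mesenchymal genes, 7 rose and 1 fell (median 0.56). SNAI1, a repressor of CDH1, stood at 3.9, 4.24 and 2.73 CPM with EGF+OSM and 52.6, 57.1 and 47.5 CPM with TGFB added (3.85 ± 0.13, adjusted p = 1.2e-16), and CDH2, which encodes N-cadherin, stood at 10.2, 8.03 and 7.44 CPM with EGF+OSM and 58.6, 58.3 and 56.1 CPM with TGFB added (2.75 ± 0.09, adjusted p = 9.4e-17). In both genes the groups were fully apart, which held for 33.1% of all rows in this direction. VIM, the mesenchymal filament vimentin, rose by 0.79 ± 0.07, the repressors ZEB1 and ZEB2 by 0.77 ± 0.14 and 0.95 ± 0.14 from low levels, and SNAI2 by 0.34 ± 0.06; TWIST1 fell (-0.72 ± 0.15).

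CDH1, which encodes E-cadherin, stood at 185, 212 and 143 CPM with EGF+OSM and 482, 483 and 397 CPM with TGFB added (1.34 ± 0.13, adjusted p = 9.9e-09). It was higher in every library with TGFB than in any without it, as were 33.1% of all rows. Of 19 tested genes of epithelial identity and junctions, 8 rose and 5 fell (median 0.23). With CDH1 rose the P-cadherin gene CDH3 (1.32 ± 0.10), the tight-junction claudins CLDN4 (2.37 ± 0.34) and CLDN1 (1.01 ± 0.21), the serine protease PRSS8 (1.55 ± 0.19), its inhibitor SPINT1 (1.07 ± 0.10) and the epithelial factor OVOL1 (1.45 ± 0.23). EPCAM, an epithelial adhesion molecule, fell from 11.8 to 4.68 CPM (-1.33 ± 0.14, adjusted p = 1.0e-08), the recycling GTPase RAB25 fell (-1.05 ± 0.20) and so did the splicing factor ESRP2 (-0.53 ± 0.10). ESRP1, its relative, did not pass the test (-0.06 ± 0.06).

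Keratins and differentiation genes went in several directions. Of 5 basal markers (median 0.26), KRT17 (1.03 ± 0.11), KRT14 (0.68 ± 0.10) and KRT5 (0.26 ± 0.06) rose and TP63, the basal transcription factor, fell slightly (-0.19 ± 0.04). Of 7 tested luminal markers, 3 rose and none fell (median 0.44, but 0.24 without EGF+OSM replicate 1 and -0.13 without EGF+OSM+TGFB replicate 1): KRT8 stood at 166, 166 and 136 CPM with EGF+OSM and 713, 714 and 657 CPM with TGFB added (2.16 ± 0.10, adjusted p = 7.2e-14), whereas its partner KRT18 stood at 416 ± 14.5 CPM with EGF+OSM and 389 ± 4.39 CPM with TGFB added (SD, n = 3) and did not pass the test (-0.10 ± 0.07; adjusted p = 0.044 in a fit of the 6 libraries alone). Of 25 tested squamous differentiation genes, 4 rose and 8 fell (median -0.47). IVL, which encodes the cornified-envelope protein involucrin, stood at 6.2, 5.31 and 3.67 CPM with EGF+OSM and 48.6, 41.6 and 40.3 CPM with TGFB added (3.11 ± 0.17, adjusted p = 2.9e-12), and the stress keratins KRT16 (0.93 ± 0.19), KRT6A (0.72 ± 0.06) and KRT6B (0.89 ± 0.14) rose. The calgranulins S100A8 (-1.17 ± 0.16) and S100A9 (-1.0 ± 0.16) and the envelope crosslinker TGM1 (-1.22 ± 0.26) fell.

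**Figure D2:**
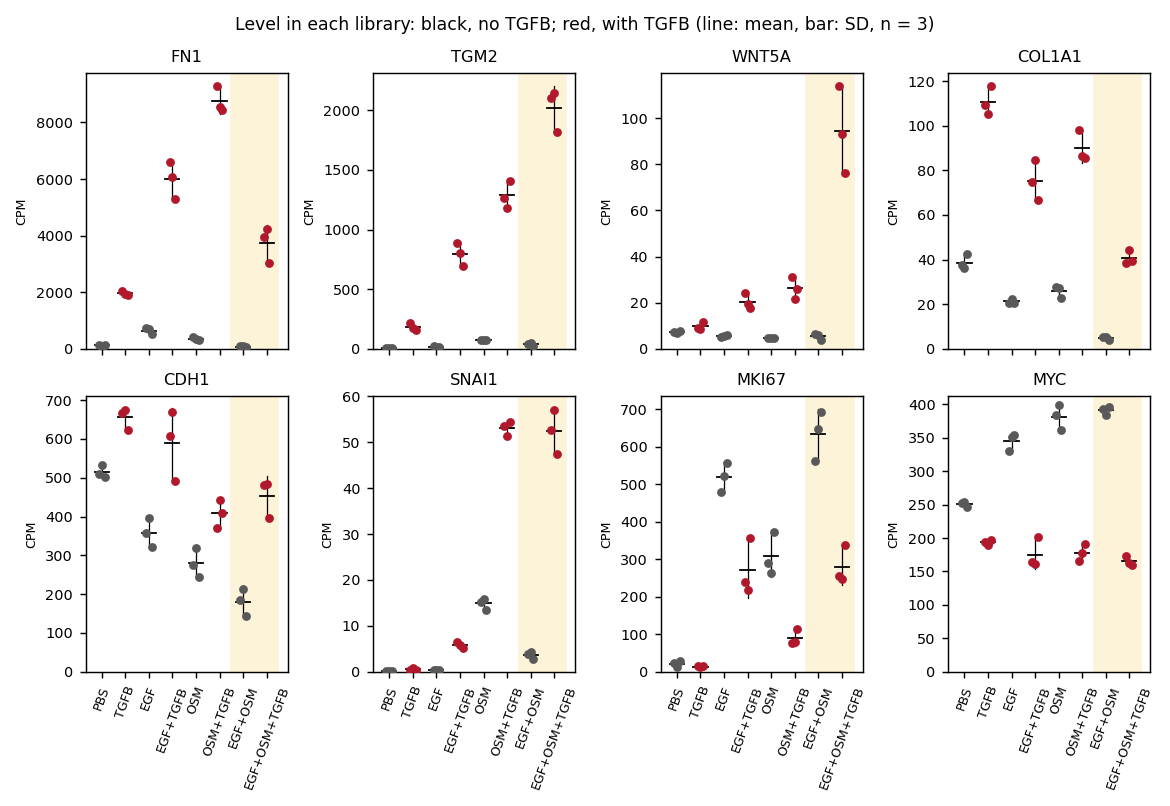
Level in CPM (y axis, linear) of 8 genes in each of the 24 libraries with a 24 h treatment, by ligand group (x axis); black points are libraries without TGFB and red points with it, the line is the mean and the bar the SD (n = 3), and the shaded columns are EGF+OSM and EGF+OSM+TGFB. FN1, TGM2, WNT5A, COL1A1, CDH1 and SNAI1 were higher, and MKI67 and MYC lower, in the 3 EGF+OSM+TGFB libraries than in the 3 EGF+OSM libraries.

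Genes of DNA replication and mitosis fell without exception in the list: of 36 tested, 36 fell, 35 of them by more than 2-fold (median -1.28). Their summed level was 5440 to 6044 CPM with EGF+OSM and 2007 to 2866 CPM with TGFB added. In bulk RNA, fewer dividing cells and less of each RNA per cell cannot be told apart. The helicase subunits fell: MCM2 stood at 157, 149 and 177 CPM with EGF+OSM and 54.7, 48.3 and 61.3 CPM with TGFB added (-1.56 ± 0.14, adjusted p = 3.1e-09) and MCM6 at 145, 145 and 159 CPM with EGF+OSM and 63.6, 52.3 and 66.6 CPM with TGFB added (-1.30 ± 0.15). The licensing factor CDT1 fell by 1.66 on the log2 scale, the origin factor CDC45 by 1.57 and E2F2, an activating E2F, by 2.12. The mitotic genes fell by similar amounts. CDC20 stood at 285, 275 and 307 CPM with EGF+OSM and 92.9, 90.8 and 150.3 CPM with TGFB added (-1.38 ± 0.20, adjusted p = 6.3e-06) and the cyclin CCNB1 at 254, 266 and 296 CPM with EGF+OSM and 89.7, 85.3 and 142 CPM with TGFB added (-1.36 ± 0.20). MKI67, the Ki-67 proliferation marker, stood at 563, 646 and 693 CPM with EGF+OSM and 256, 248 and 337 CPM with TGFB added (-1.18 ± 0.22, adjusted p = 8.3e-05). The third EGF+OSM+TGFB library was the highest of its group for MKI67, and it still lay below all EGF+OSM libraries. Of all rows, 30.8% were apart in this direction.

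Of 13 tested G1 regulators, 2 rose and 5 fell (median -0.07). MYC, the growth-promoting factor that TGFB is known to repress, stood at 393, 384 and 396 CPM with EGF+OSM and 173, 163 and 160.1 CPM with TGFB added (-1.24 ± 0.09, adjusted p = 4.6e-11). CDKN1A, which encodes the CDK inhibitor p21, stood at 173, 169 and 137 CPM with EGF+OSM and 380.5, 416 and 355 CPM with TGFB added (1.26 ± 0.12, adjusted p = 1.0e-08), and CDK4 at 139, 130.1 and 144 CPM with EGF+OSM and 50.9, 46.6 and 51.8 CPM with TGFB added (-1.47 ± 0.08, adjusted p = 2.0e-13). The phosphatase CDC25A fell (-1.42 ± 0.18). The inhibitor genes CDKN2A and CDKN2B, the latter a classic TGFB target, lie at a locus known to be deleted in MCF10A and had 0 counts in all 6 libraries. The D cyclin CCND1 (0.14 ± 0.13) and CDKN1B, which encodes p27 (-0.04 ± 0.10), did not pass the test.

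Targets and feedback inhibitors of ERK, the pathway that EGF drives, were mostly lower: of 19, 4 rose and 10 fell (median -0.63). DUSP6, the phosphatase that removes phosphate from ERK, stood at 158, 137 and 148 CPM with EGF+OSM and 71.1, 71.2 and 57.6 CPM with TGFB added (-1.15 ± 0.17, adjusted p = 3.7e-06). FOSL1, an AP-1 subunit, stood at 127, 109 and 134 CPM with EGF+OSM and 55.4, 57.1 and 63.7 CPM with TGFB added (-1.07 ± 0.12), and the immediate-early factor EGR1 at 56.4, 53.7 and 55.9 CPM with EGF+OSM and 20.4, 26.1 and 18.5 CPM with TGFB added (-1.35 ± 0.18). The groups did not overlap in these 3 genes, which held for 30.8% of all rows in this direction. The inhibitor SPRY1 (-2.03 ± 0.24) and the ETS factor ETV1 (-1.75 ± 0.20) fell further, whereas the AP-1 subunit JUN (1.33 ± 0.13) and the phosphatases DUSP1 (1.01 ± 0.07) and DUSP4 (0.85 ± 0.15) rose. Of 10 EGF family ligands and receptors, 2 rose and 4 fell (median 0.06, but -0.01 without EGF+OSM+TGFB replicate 2 and -0.03 without EGF+OSM+TGFB replicate 3): AREG, which encodes amphiregulin, stood at 374, 312 and 384 CPM with EGF+OSM and 91.1, 77.6 and 114 CPM with TGFB added (-1.92 ± 0.22, adjusted p = 2.4e-07), and with EREG and AREG fell the ligand BTC (-0.89 ± 0.20) and the receptor inhibitor LRIG1 (-1.11 ± 0.09). EGFR itself stood at 512 ± 17.5 CPM with EGF+OSM and 549.7 ± 31.9 CPM with TGFB added (SD, n = 3) and did not pass the test (0.10 ± 0.05).

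Of 16 genes of gp130 cytokines, receptors and STAT feedback, 8 rose and 1 fell (median 0.38). The receptor chains rose: OSMR stood at 381, 384 and 336 CPM with EGF+OSM and 768, 769 and 698 CPM with TGFB added (1.02 ± 0.07, adjusted p = 1.4e-11) and IL6ST, which encodes gp130, rose by 0.55 ± 0.05. SOCS3, the STAT3-induced inhibitor of gp130, stood at 86, 82.2 and 90.4 CPM with EGF+OSM and 73.2, 82.7 and 85.1 CPM with TGFB added and did not pass the test (-0.10 ± 0.11, adjusted p = 0.44); the ranges of the groups overlapped. STAT3 did not pass either (0.07 ± 0.06), while SOCS1 rose from 0.244 to 1.59 CPM (2.69 ± 0.27). Of 17 tested acute-phase and complement genes, SERPINA1, the secreted antitrypsin, rose (0.80 ± 0.08) and 4 fell (median -0.06), among them haptoglobin HP (-2.72 ± 0.58). Of 20 tested chemokines and cytokines, 6 rose and 4 fell (median 0.06, and between -0.09 and -0.04 without EGF+OSM replicate 3, EGF+OSM+TGFB replicate 2 or EGF+OSM+TGFB replicate 3); CCL20 rose (1.31 ± 0.12), CSF3 fell (-0.86 ± 0.16) and the alarmin IL33 fell from a low level (-3.45 ± 0.54).

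Among 20 interferon-stimulated genes 9 rose and 5 fell (median -0.02, but 0.22 without EGF+OSM replicate 2 and 0.07 without EGF+OSM+TGFB replicate 1), and among 10 genes of MHC class I presentation 5 rose and 1 fell (median 0.25); the latter lie in a region with several rows per symbol, so their values are uncertain. Of 15 tested genes of cholesterol and fatty acid synthesis, 11 rose and 1 fell (median 0.47), with IDI1, an isoprenoid enzyme, at 1.20 ± 0.11 and the fatty acid synthase FASN lower (-0.38 ± 0.08). Of 14 glycolysis and hypoxia genes, 10 rose and 1 fell (median 0.41); the regulator PFKFB4 stood at 14.9, 12.8 and 9.18 CPM with EGF+OSM and 61.9, 55.5 and 46.1 CPM with TGFB added (2.15 ± 0.13, adjusted p = 3.1e-12) and the angiogenic factor VEGFA rose by 1.62 ± 0.13. Of 15 ATF4-linked genes, 6 rose and 7 fell (median 0.09, and -0.06 without EGF+OSM+TGFB replicate 2): the cystine transporter SLC7A11 (-1.92 ± 0.22) and the serine synthesis enzymes PSAT1 (-1.76 ± 0.12) and PHGDH (-0.91 ± 0.14) fell, while the stress genes CHAC1 (1.37 ± 0.24) and SESN2 (1.30 ± 0.08) rose.

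Of 18 tested WNT and Notch genes, 6 rose and 4 fell (median 0.29). WNT5A, a ligand of the β-catenin-independent WNT pathway, stood at 6.45, 6.05 and 3.9 CPM with EGF+OSM and 114, 93 and 76.3 CPM with TGFB added (4.11 ± 0.18, adjusted p = 3.9e-14). All 3 libraries with TGFB were more than 10 times above the highest without it. WNT5B rose by 3.67 ± 0.31 and WNT7A by 1.6 ± 0.21. DKK1, a secreted inhibitor of β-catenin-dependent WNT signalling, stood at 18.9, 18.7 and 23.6 CPM with EGF+OSM and 6.02, 7.32 and 5.99 CPM with TGFB added (-1.67 ± 0.13, adjusted p = 1.1e-10), and the Notch ligand DLL1 fell (-2.55 ± 0.43) while JAG1 rose (0.75 ± 0.08).

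How far these effects depended on the ligands already present was read from the same TGFB comparison on PBS, on EGF and on OSM. TGFB changed 5569 rows on PBS (33.5%), 8663 on EGF (52.2%) and 8101 on OSM (48.8%), against 9766 on EGF+OSM. Across the 16611 rows the log2 fold changes on EGF+OSM had a Pearson's r of 0.33 and a Spearman's rho of 0.38 with those on PBS. The values were 0.55 and 0.72 with those on EGF, and 0.57 and 0.72 with those on OSM; genes are not independent replicates, and no p is given. Of 4215 rows called on both EGF+OSM and PBS, 3580 moved the same way (84.9%) and 635 the opposite way. For EGF the same direction held in 7306 of 7397 rows called in both (98.8%), and for OSM in 6805 of 6893 (98.7%). TGFB raised 1814 rows and lowered 1233 rows on all 4 backgrounds, and 1227 rows were called on EGF+OSM alone, which does not show that their effects differ.

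The difference between 2 TGFB effects was tested as a contrast of its own. The effect on EGF+OSM differed from that on PBS for 6973 rows (42%), from that on OSM for 2522 (15.2%) and from that on EGF for 1452 (8.74%). With replicate numbers in the fit these counts were 7553, 3500 and 2411. Against PBS, the 2 effects had the same sign and the one on EGF+OSM was larger for 3348 of the 6973 rows (48%), had the same sign and was smaller for 524 (7.51%), and the signs were opposite for 3101 (44.5%). Against EGF the same 3 shares were 63.4%, 10.5% and 26.1%, and against OSM 70.3%, 6.9% and 22.8%. All these signs are those of the estimates, whether or not either effect passed the test by itself. Rows called both on EGF+OSM and on PBS with opposite signs numbered 635. Leaving out 1 library moved the count against EGF to between 914 (without EGF+OSM replicate 3; 927 without EGF+OSM+TGFB replicate 2) and 1584, and the count against OSM to between 1454 (without EGF+OSM replicate 3) and 3380 (without OSM replicate 3).

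**Figure D3:**
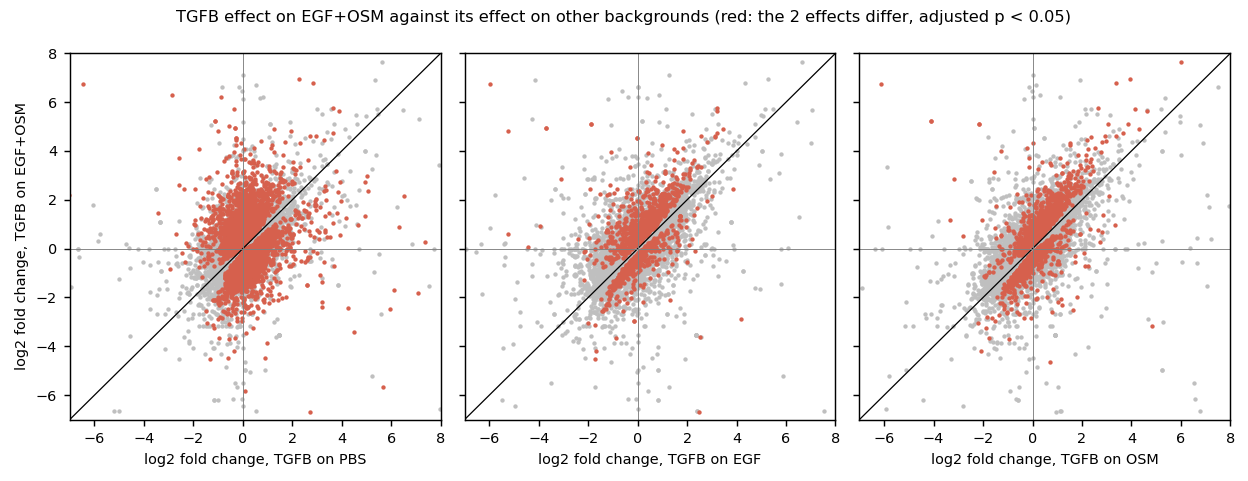
Log2 fold change with TGFB on EGF+OSM (y axis) against that on PBS, EGF or OSM (x axis), 1 point a row; red rows are those whose 2 effects differed at an adjusted p under 0.05 (6973, 1452 and 2522), and the diagonal marks equal effects. Between 13 and 16 rows a panel, among them rows at 0 counts in a group, lie outside the axes.

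Genes of the core TGFB response, such as TGM2, SMAD7 and FN1, rose on every background. TGM2 rose by 5.41 ± 0.22 on PBS, 5.46 ± 0.21 on EGF and 4.13 ± 0.19 on OSM, and SMAD7 by 1.01 ± 0.08, 1.42 ± 0.08 and 1.28 ± 0.07. FN1 rose less on each of these backgrounds than on EGF+OSM, by 3.90 ± 0.19, 3.21 ± 0.19 and 4.62 ± 0.20. Its starting level was lowest with EGF+OSM, at 76.2 CPM against 132 on PBS, 356 on OSM and 648 on EGF, and the level reached with all 3 ligands, 3742 ± 622 CPM (SD, n = 3), was below the 8758 ± 452 CPM reached with OSM+TGFB. COL1A1 likewise began at 4.85 CPM with EGF+OSM and 38.7 on PBS, and reached 40.7 and 111 CPM. Its effect was larger on EGF+OSM than on PBS by 1.55 ± 0.15 (adjusted p = 4.2e-08). For KANK4 the effect was larger on EGF+OSM than on OSM by 3.11 ± 0.27 (adjusted p = 2.6e-07), where it began at 33.7 rather than 1.93 CPM.

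WNT5A showed the largest rise where both ligands were present. TGFB took it from 7.28 to 9.87 CPM on PBS, from 5.68 to 20.4 on EGF and from 4.57 to 26.2 on OSM, against 5.47 to 94.4 on EGF+OSM. The effect on EGF+OSM was larger than on PBS by 3.67 ± 0.25 (adjusted p = 3.0e-10), than on EGF by 2.27 ± 0.24 (adjusted p = 2.8e-06) and than on OSM by 1.59 ± 0.25 (adjusted p = 2.1e-04). The chloride channel protein gene CLIC3 behaved alike, with differences of 4.03 ± 0.33 against PBS and 2.63 ± 0.33 against EGF, but it began lower with EGF+OSM (0.6 CPM) than on PBS (7.34 CPM). Of genes with counts in every group and a single row, NKPD1 had the largest positive difference against PBS (4.51 ± 0.55). This ranking covers genes with a mean of at least 10 CPM in the highest group. On EGF+OSM NKPD1 rose only from 0.033 to 0.68 CPM, below its level on PBS of 11.5 CPM. The summed counts of VASN gave a difference of 3.74 ± 0.29 against PBS.

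The E-cadherin gene CDH1 also began lowest with EGF+OSM. It stood at 515 ± 15.1 CPM on PBS, 358 ± 37.3 on EGF, 279 ± 37.6 on OSM and 179.8 ± 34.9 on EGF+OSM (SD, n = 3). TGFB raised it on each of them, by 0.35 ± 0.13, 0.72 ± 0.13, 0.55 ± 0.13 and 1.34 ± 0.13, and the effect on EGF+OSM exceeded that on PBS by 0.99 ± 0.18 (adjusted p = 1.3e-04). Its level with all 3 ligands was still under that of the PBS libraries. CLDN4 rose on EGF+OSM and on EGF (1.06 ± 0.28) but did not pass the test on OSM (0.19 ± 0.30); its difference from OSM was 2.18 ± 0.45 (adjusted p = 0.0031). OVOL1 passed the test on EGF+OSM and on none of the other 3, and its effect differed from those on PBS, EGF and OSM by 1.78 ± 0.29, 1.59 ± 0.30 and 1.85 ± 0.30 (adjusted p = 3.0e-05, 0.0013 and 2.7e-04). EPCAM rose with TGFB on PBS (0.59 ± 0.13) and fell on EGF+OSM, a difference of -1.92 ± 0.19 (adjusted p = 3.0e-08). Involucrin differed most from EGF, by 2.64 ± 0.22 (adjusted p = 2.1e-07): TGFB moved it from 64 to 88.4 CPM there.

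**Figure D4:**
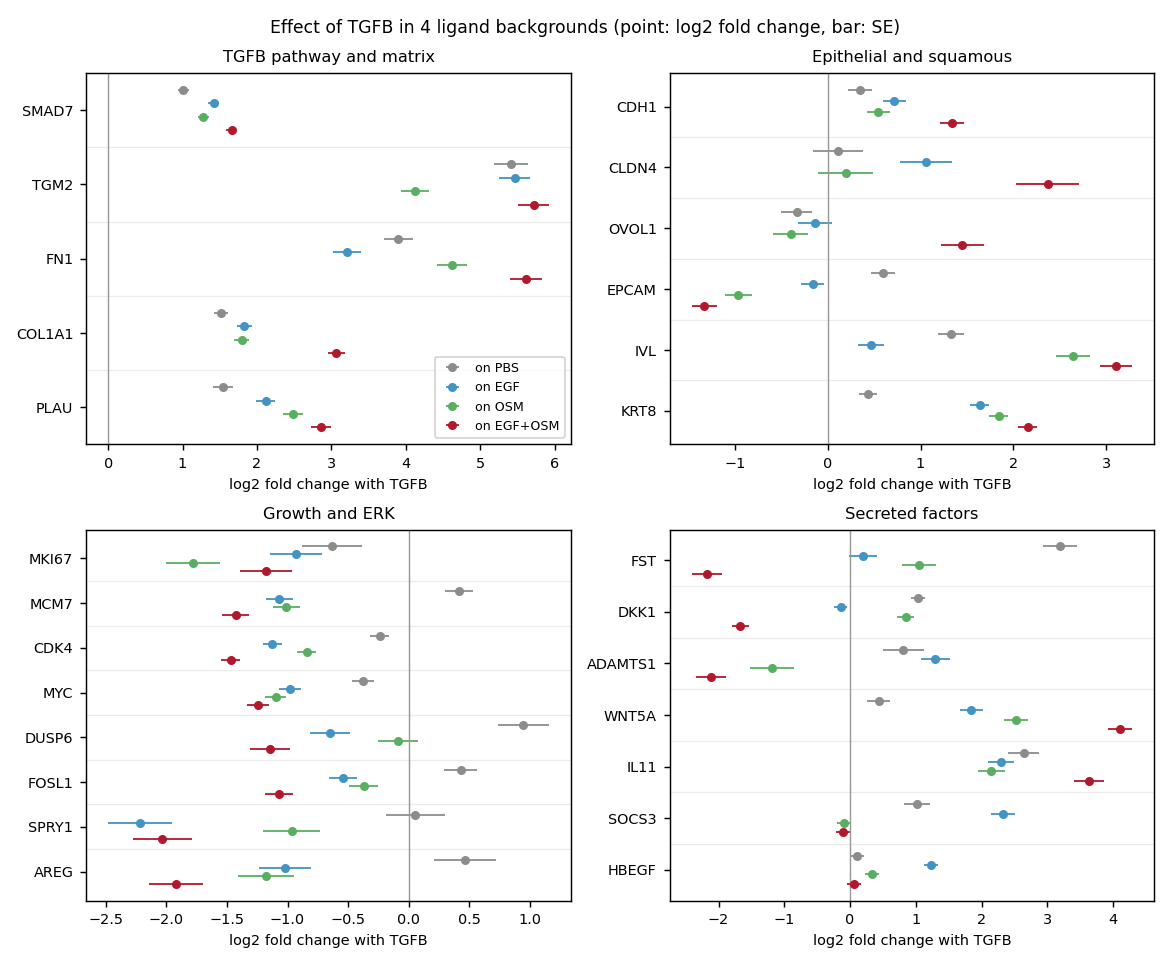
Log2 fold change with TGFB (x axis; point, with SE as the bar) for 26 genes (y axis) on PBS (grey), EGF (blue), OSM (green) and EGF+OSM (red), each from 3 libraries a side. Genes of the TGFB pathway and matrix lie to the right of 0 on all 4 backgrounds, while FST, DKK1, ADAMTS1, DUSP6, FOSL1 and EPCAM lie on opposite sides of 0 on PBS and on EGF+OSM.

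Replication and mitosis genes moved less on PBS than on EGF+OSM. On PBS, where MKI67 stood at 21.5 CPM, the list had a median of -0.27, with 9 of 36 lower (14.7% of all rows) and 1 higher. On EGF the median was -0.95 and on OSM -1.59, with 36 of 36 lower on both. The effect on EGF+OSM differed from that on PBS for 26 of the 36, all of them lower on EGF+OSM, and from those on EGF and OSM for none of the 36 (percent called lower over all rows: 21.9% against PBS, 3.38% against EGF and 6.97% against OSM). The median difference was -0.34 against EGF and 0.32 against OSM. These counts come from a fit that leaves out replicate numbers, and they do not show that the effects were equal. The helicase subunit MCM7 rose slightly on PBS (0.42 ± 0.12) and fell on EGF+OSM (-1.43 ± 0.11), a difference of -1.84 ± 0.16 (adjusted p = 1.3e-08). MYC fell on all 4 backgrounds, by 0.38 on PBS, 0.98 on EGF, 1.1 on OSM and 1.24 on EGF+OSM on the log2 scale, and stood after TGFB at 194, 175, 178 and 165 CPM. CDKN1A stood at 477 CPM on PBS and did not pass the test there (0.13 ± 0.12), and rose on EGF (0.99 ± 0.12), OSM (0.84 ± 0.12) and EGF+OSM.

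ERK genes differed in direction. On PBS 10 of the 19 rose (18.9% of all rows did) and none fell (median 0.43), and on EGF+OSM the effect was lower than on PBS for 14 of the 19 (21.9% of all rows) and higher for 1. DUSP6 rose from 5.39 to 10.4 CPM on PBS (0.95 ± 0.21) and fell on EGF+OSM, a difference of -2.09 ± 0.27 (adjusted p = 2.6e-06). On OSM it did not pass the test (-0.09 ± 0.17). FOSL1 rose on PBS (0.43 ± 0.14) and differed by -1.50 ± 0.18 (adjusted p = 8.2e-07), and ETV1 by -2.86 ± 0.31 (adjusted p = 1.4e-07). With both TGFB and the 2 other ligands DUSP6 remained far above its PBS level, at 66.6 CPM.

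Several secreted regulators moved in opposite directions. FST rose on PBS from 0.509 to 4.7 CPM (3.20 ± 0.26) and on OSM (1.04 ± 0.26), did not pass the test on EGF (0.20 ± 0.21) and fell on EGF+OSM; its differences were -5.38 ± 0.35 against PBS (adjusted p = 6.4e-11) and -3.22 ± 0.34 against OSM (adjusted p = 2.0e-06). DKK1 rose on PBS from 87.9 to 180.0 CPM and on OSM from 7.8 to 14.1 CPM, and fell on EGF+OSM, with differences of -2.70 ± 0.16 and -2.51 ± 0.18 (adjusted p = 3.9e-11 and 9.9e-09). ADAMTS1 rose on PBS (0.81 ± 0.31) and EGF (1.30 ± 0.22) and fell on OSM (-1.18 ± 0.34) and EGF+OSM, a difference of -2.93 ± 0.39 against PBS. COL8A1 rose on PBS (2.35 ± 0.11) and fell on EGF+OSM (difference -2.88 ± 0.16), and COL6A1 fell on PBS (-0.93 ± 0.15) and rose on EGF+OSM (difference 2.28 ± 0.23). HAS3, a hyaluronan synthase, fell from 36 to 8.65 CPM on EGF+OSM and did not pass the test on OSM (0.14 ± 0.12; difference -2.20 ± 0.17).

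Among the largest negative differences, the bHLH-PAS factor ARNT2 rose on PBS (1.59 ± 0.17) and fell on EGF+OSM (-2.04 ± 0.17), with differences of -3.62 ± 0.24, -1.77 ± 0.24 and -2.21 ± 0.24 against PBS, EGF and OSM. SORL1, a sorting receptor, rose from 17.8 to 144 CPM on PBS and from 7.64 to 32.5 on OSM, but stood at 13.8 ± 1.27 CPM with EGF+OSM and 12.3 ± 0.471 CPM with TGFB added (SD, n = 3) and did not pass the test there (-0.17 ± 0.12); the differences were -3.18 ± 0.16 and -2.26 ± 0.16. The adaptor SH2D5 differed by -3.26 ± 0.44 from PBS and -1.77 ± 0.34 from EGF. SCG5, a secretory chaperone whose symbol has 2 rows, differed by -3.60 ± 0.67 from PBS, where its level was near 0. TNFRSF6B, a decoy receptor that shares its locus with a read-through gene, was listed at 0 in the PBS libraries, and TMEM265 was listed at 0 with EGF+OSM, so no differences are given for them.

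Against EGF, the gene with the largest negative difference was SOCS3, among genes with a mean of at least 10 CPM in the highest group. TGFB raised SOCS3 from 1.28 to 6.35 CPM on EGF, where OSM was absent, and left it at 80.3 CPM on EGF+OSM (difference -2.43 ± 0.21, adjusted p = 1.6e-07). IL1RL1, the receptor of IL-33, differed by -1.80 ± 0.36 and the secreted hormone STC1 by -1.67 ± 0.21. In the positive direction the phosphodiesterase GDPD3 differed by 2.83 ± 0.37, since it fell on EGF and rose on EGF+OSM. MUC21, a membrane mucin with 5 rows for its symbol, had a difference of 4.37 ± 1.32 that lost its call when rows were summed and when single libraries were left out. Against OSM, AMTN, an enamel and basement-membrane protein, differed by 2.24 ± 0.34, LBH by 2.23 ± 0.24, and ATP1B1, the β subunit of the sodium pump, by -2.15 ± 0.14, having risen from 15.7 to 111 CPM on OSM and from 20.7 to 33 CPM on EGF+OSM.

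The other gene groups were compared with the same test of the difference. For the 32 matrix proteins the effect on EGF+OSM was higher than on PBS for 14 (20.1% of all rows) and lower for 8 (21.9%), higher than on EGF for 8 (5.36%) and lower for 1 (3.38%), and higher than on OSM for 11 (8.21%) and lower for 1 (6.97%). For the 19 epithelial genes it was higher than on PBS for 8 (20.1%) and lower for 3 (21.9%), higher than on EGF for 4 (5.36%) and lower for 2 (3.38%), and higher than on OSM for 9 (8.21%) and lower for none (6.97%). On OSM, TGFB lowered 8 of these 19 genes (24.2% of all rows) and raised 4. Of the 16 contractile genes, 16 rose on PBS (18.9% of all rows did), and the effect on EGF+OSM was lower than on PBS for 8 (21.9% of all rows) and higher for 3 (20.1%); FLNA, a filamin that crosslinks actin, rose by 1.77 ± 0.08 on PBS and 0.78 ± 0.07 on EGF+OSM, having begun at 371 and 2308 CPM. Of the 14 glycolysis and hypoxia genes, the effect was higher than on PBS for 8 (20.1% of all rows) and lower for 2 (21.9%), and higher than on EGF for 6 (5.36%) and lower for none; the glucose transporter SLC2A1 fell on PBS (-0.65 ± 0.06) and rose on EGF+OSM (0.70 ± 0.06). Of the 25 squamous genes, 20 fell on EGF (26.4% of all rows) and 11 on PBS (14.7%), while 7 fell on OSM (24.2%) and 8 on EGF+OSM (28.4%), shares near those of all rows; the cornified-layer keratin KRT10 fell on EGF (-2.12 ± 0.27) and did not pass the test on EGF+OSM (-0.10 ± 0.29), where it stood at 20.5 CPM against 3165 CPM on PBS.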

How the data were processed

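RNA-seq libraries were made with a stranded kit from polyadenylated RNA, per the labels' protocols. The authors deposited 1 table of estimated counts, 40487 rows by 27 libraries, all whole numbers. Trim Galore 0.4.3, cutadapt 1.10, FastQC 0.11.5, kallisto 0.46.2 and R 3.5.0 and the builds GRCh38.p5 and hg38 are named per the submitters' processing notes; the annotation is not given in the sources used here. Libraries were grouped by their titles. Estimated counts divide reads between related sequences, so symbols with several rows (1762 of the rows tested) are less certain. Rows without a symbol held a mean of 0.324% of a library.

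Counts were tested with edgeR 4.0.16 (R 4.3.3): TMM scaling, filterByExpr, a quasi-likelihood fit with a mean for each of 9 groups over all 27 libraries (18 residual degrees of freedom; biological coefficient of variation 10.1%), and Benjamini-Hochberg adjustment over 16611 rows. SE is the size of the log2 fold change divided by the root of F. Named genes were the 12 steepest rises and 12 steepest falls on EGF+OSM (mean CPM of at least 10 in the higher group, groups not overlapping). They also included the 5 largest differences each way against each background, with a mean CPM of at least 10 in the highest group. Members of 29 gene lists were named too, and in these lists a symbol with several rows enters once. The members, lists and tests were chosen with earlier results of these data known. The script was tested on simulated counts. Some members counted in the lists are not reported here by name. Alternatives were upper-quartile and RLE scaling, no filter, a replicate block, the contrast's libraries alone, rows summed by symbol, DESeq2 1.42.0, a 2-fold limit and leaving out each library. Replicates of EGF+OSM and of EGF+OSM+TGFB correlated at 0.993 to 0.995 and differed by more than sampling noise. Promoters and their coordinates are RefSeq's (GRCh38.p14); 345 of the 478 genes described had one.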

Additional observations from a re-analysis of the deposited data

Results flagged for a closer look

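The results in this section were singled out because the effect of TGFB on EGF+OSM differed from its effect on another background, by a test of that difference (edgeR, adjusted p under 0.05). Such differences were found for 6973 rows against PBS, 1452 against EGF and 2522 against OSM. No explanation was tested for any of them. The groups hold 3 libraries each, and no test for single libraries that stand apart was made. Leaving out EGF+OSM replicate 3 moved the count against EGF to 914 and that against OSM to 1454. Leaving out OSM replicate 3 moved the count against OSM to 3380.

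Against PBS, the effect on EGF+OSM was higher, as a difference of log2 fold changes, by 4.51 for NKPD1, 4.03 for CLIC3, 3.74 for VASN with its rows summed, 3.67 for WNT5A, 2.28 for COL6A1, 1.78 for OVOL1, 1.55 for COL1A1 and 0.99 for CDH1. It was lower for the activin antagonist FST (-5.38), for ARNT2 (-3.62), SCG5 (-3.60), SH2D5 (-3.26) and SORL1 (-3.18), for the protease ADAMTS1 (-2.93) and the collagen COL8A1 (-2.88), for the WNT inhibitor DKK1 (-2.70), for the ERK-linked genes ETV1 (-2.86), DUSP6 (-2.09) and FOSL1 (-1.50), for EPCAM (-1.92) and for the helicase subunit MCM7 (-1.84). FST, DKK1, ADAMTS1, COL8A1, ETV1, DUSP6, FOSL1, EPCAM, MCM7, ARNT2 and SH2D5 rose on PBS and fell on EGF+OSM, each past the threshold in its own comparison. NKPD1 and CLIC3 began at low levels with EGF+OSM, lower than on PBS. NKPD1 also stayed below its PBS level when TGFB was added, so its difference rests on few counts.

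Against EGF, the effect was higher by 2.83 for GDPD3, 2.64 for IVL, 2.63 for CLIC3, 2.27 for WNT5A and 1.59 for OVOL1. MUC21 differed by 4.37 in its row with the most counts, but by 1.54 with its 5 rows summed, which did not pass the test. The effect was lower for SOCS3 (-2.43), IL1RL1 (-1.80), ARNT2 (-1.77), SH2D5 (-1.77) and STC1 (-1.67).

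Against OSM, the effect was higher by 3.11 for KANK4, 2.24 for AMTN, 2.23 for LBH, 2.18 for CLDN4, 1.85 for OVOL1 and 1.59 for WNT5A. It was lower for FST (-3.22), DKK1 (-2.51), SORL1 (-2.26), ARNT2 (-2.21), HAS3 (-2.20) and ATP1B1 (-2.15).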

How the results depend on the processing

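The counts of rows called kept within 1.5 times of 9766 (EGF+OSM), 6973 (against PBS), 1452 (against EGF) and 2522 (against OSM) under upper-quartile and RLE scaling, no filter, rows summed by symbol and DESeq2. With a 2-fold limit they were 2434, 1619, 333 and 312. With only the libraries of the contrast the count against OSM was 1605. With a replicate block the 4 counts were 10067, 7553, 2411 and 3500. Same-numbered EGF+OSM and EGF+OSM+TGFB libraries deviated together with r of 0.03, 0.18 and 0.30. Replicate 1 of EGF+OSM correlated best with replicate 2 of EGF+OSM+TGFB (r = 0.14). The other differently numbered pairs of these groups had r from -0.30 to -0.0039. Over all 24 h groups same-numbered libraries did tend to deviate together: r was above 0 in 76 of 84 same-numbered and 38 of 168 differently numbered pairs of libraries, and all 3 same-numbered r were over 0.1 in 14 of 28 pairs of groups. Same-numbered r was 0.21, 0.26 and 0.28 for EGF and EGF+TGFB, and 0.30, 0.27 and 0.39 for OSM and OSM+TGFB. The main fit still left replicate numbers out for every comparison. The block also brought ACTA2, SMAD2 and THBS1 past the threshold and moved the interferon list's median to 0.026. Leaving out 1 library gave 8963 to 9416, 6265 to 6801, 914 to 1584 and 1454 to 3380. In the same runs the log2 fold change ranged from -0.15 to 0.013 for CDKN1B, -0.055 to 0.072 for ITGA6 and -0.0020 to 0.085 for STAT3, none past the threshold, and the medians from -0.032 to 0.083 for EGF family genes, -0.13 to 0.54 for luminal markers, -0.090 to 0.11 for chemokines, -0.11 to 0.22 for interferon-stimulated genes and -0.061 to 0.10 for ATF4-linked genes. The causes were not tested. MUC21 against EGF lost its call with no filter, with summed rows (1.54) and in 10 of 12 runs without a library. Depth limits genes near 0 counts, such as SMAD6, IL11 and PDGFB, whose folds rest on few counts without TGFB.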
